A study of Mus musculus with 24 samples.

Results

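The data on 8 genes that control how cells sense, take up and move cholesterol are described here for cultured mouse oligodendrocytes exposed to ethanol. They are Insig1, Insig2, Srebf1, Srebf2, Scap, Stard4, Npc1 and Npc2, and they were taken by symbol from the 55359 gene identifiers in the deposited counts. All 8 were found, each under 1 identifier, and all 8 had enough counts to be tested in every comparison. Immature oligodendrocytes, the cells that go on to make myelin, were taken from the cortices of C57BL/6J pups at postnatal days 5 to 7. They were caught on magnetic beads through the surface antigen O4 and differentiated for 3 days, mainly with the thyroid hormone triiodothyronine. Ethanol was then present for 3 days. The first experiment had 6 wells at 30 mM ethanol and 6 wells without ethanol, and the second had 6 wells at 10 mM and 6 wells without. Every one of these 24 wells went through the same strain, sort and hormone treatment. Ethanol was held in the incubator of the treated wells and the controls stood in another incubator, which means that an effect of ethanol and one of the incubator cannot be told apart. The same holds for dose and experiment, as each dose belonged to 1 experiment. The labels call the wells biological replicates without saying whether they came from separate litters or isolations, so p-values measure the spread between these wells, which may be technical.

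Sterol regulatory element binding proteins (SREBPs) are transcription factors made as membrane proteins of the endoplasmic reticulum. When the membrane is poor in cholesterol, the escort protein SCAP carries them to the Golgi, where they are cut and set free to enter the nucleus and turn on genes of sterol and fatty acid synthesis and of lipoprotein uptake. When sterols are plentiful, INSIG proteins hold SCAP and its cargo back. Cholesterol that enters by endocytosis leaves the lysosome through NPC2 and NPC1, and STARD4 is a soluble carrier that moves sterol between membranes. Myelin is very rich in cholesterol, and oligodendrocytes make much of their own. Insig1 and Stard4 are known targets of SREBPs, so their transcripts are part of the feedback as well as of the machinery.

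The promoters of the 2 INSIG genes are shown first because these genes code for proteins with the same role. Any link between their letters and the values below was not tested. The windows run from 250 bases before to 50 bases after a transcription start and come from RefSeq, build GRCm38.p6. They are used for their letters only, since the counts were made on another build. Of the 8 genes, 6 had at least 1 window, and these 6 had 11 windows in all. The Insig1 window lies on the plus strand at chr5:28071162-28071461. The Insig2 window shown is that of the most upstream of 3 starts, on the minus strand at chr1:121332540-121332839. Capitals mark matches, on either strand, to CCAAT (the box bound by NF-Y), CACGTG (an E-box) and GGGCGG (a GC box). No match overlapped another in these windows.
Insig1: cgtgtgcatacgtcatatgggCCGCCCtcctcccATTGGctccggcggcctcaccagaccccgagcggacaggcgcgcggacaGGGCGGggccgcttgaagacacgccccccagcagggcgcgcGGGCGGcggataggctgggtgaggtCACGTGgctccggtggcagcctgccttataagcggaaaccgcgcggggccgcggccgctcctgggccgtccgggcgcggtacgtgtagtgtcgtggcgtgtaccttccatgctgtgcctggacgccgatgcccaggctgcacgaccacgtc
Insig2: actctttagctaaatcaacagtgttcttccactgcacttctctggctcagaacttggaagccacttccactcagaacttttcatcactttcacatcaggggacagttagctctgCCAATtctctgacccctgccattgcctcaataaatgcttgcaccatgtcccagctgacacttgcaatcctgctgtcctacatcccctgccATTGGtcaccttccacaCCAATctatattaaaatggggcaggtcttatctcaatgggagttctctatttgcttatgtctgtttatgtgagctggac
The Insig1 window held 1 CCAAT match on the minus strand with its first base at position -216 from the start, 1 CACGTG at position -101 and 3 GGGCGG, at -229, -167 and -126. The Insig2 window held 3 CCAAT, at -136, -46 and -29, and neither of the other motifs. The other Insig2 windows each held 1 GGGCGG. A sterol response element spelled TCACNCCAC, searched on both strands, was in none of the 11 windows, and it was in 1.24% of all 32851 mouse windows of this length. CCAAT was in 37.4%, CACGTG in 7.15% and GGGCGG in 35.7% of all windows. Among the 6 genes with a window, 5 held CCAAT in at least 1 of their windows, 6 held GGGCGG and 2 held CACGTG. Those with CACGTG were Insig1 and Scap. Of 20 cholesterol synthesis genes, 15 had a window, of which 14 held CCAAT, 14 held GGGCGG and 1 held TCACNCCAC. These 15 genes had 18 windows. Counts by gene take in all windows of a gene, so they cannot be set against the shares of single windows above. A match describes letters only, and a missing match says nothing of a factor.

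Transcripts were counted by 3′ tag sequencing, in which each transcript gives reads from near its 3′ end, so counts do not grow with transcript length. The total per well ranged from 1184609 to 1817028 counts, and 3 counts, taken as the detection floor, stood for 1.65 to 2.53 CPM, the count scaled to the size of the library. The lowest count of any of the 8 genes in any well was 26, for Insig2, so all stood above the floor in every well. Levels of the 8 genes are given as CPM after TMM scaling, which corrects for differences in the makeup of libraries. In the mean over 24 wells, Npc2 ranked highest at 556.4 CPM, place 194 of the 14655 genes measured. Srebf2 followed at 165.0, Scap at 129.5, Srebf1 at 113.4 and Insig1 at 88.8 CPM. Npc1 at 46.2 and Stard4 at 45.2 were close to each other, and Insig2 was lowest at 27.1 CPM. Npc2 stood above its partner Npc1, and Insig1 above Insig2, in all 24 wells.

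The label of the cells was set against marker genes. Oligodendrocyte markers were all detected in every group, with Mbp at a mean of 2491 to 3385 CPM over the groups. The 9 markers summed to 7038 to 15700 CPM per well. Markers of other cells were present too. Astrocyte markers summed to 3753 to 6107 CPM, those of fibroblasts and mural cells to 333.4 to 953.5, oligodendrocyte precursors to 127.2 to 229.7, neurons to 93.1 to 181.1 and endothelial cells to 34.4 to 66.3. No marker list was empty, and 1 of 4 endothelial markers was at 0 in 3 of the 4 groups. Microglial markers summed to 204.2 to 352.1 CPM in the first experiment and to 2737 to 3448 in the second. By oligodendrocyte markers, the well that stood apart was replicate 1 at 30 mM, with 15700 CPM against 8998 to 9987 in the other 5 wells at this dose. Its counts differed from theirs with a chi-square per degree of freedom of 2.07 to 2.88, where all pairs of wells within groups spanned 1.07 to 2.88. Replicate 2 at 30 mM, with the highest astrocyte sum (6107 CPM), gave 1.75 to 2.12 against replicates 3 to 6. Pairs among replicates 3 to 6 gave 1.16 to 1.42. Results at 30 mM are also given without replicate 1 where it moves them.

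At 30 mM ethanol, Insig1 and Stard4 were the 2 of the 8 genes that fell, and none rose. Insig1 fell by 0.42 on the log2 scale, which is 25.1% lower, and Stard4 fell by 0.54, or 31.1% lower. The other 6 genes did not pass the test, and their log2 fold changes lay between -0.12 and 0.29. Calls were made at an adjusted p under 0.05 by edgeR's quasi-likelihood test with Benjamini-Hochberg adjustment over all 13235 genes tested. By that rule 9.67% of all genes were called, 3.02% higher and 6.65% lower. The median log2 fold change was -0.05 over the 8 genes and 0.02 over all genes.

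**Figure D1:**
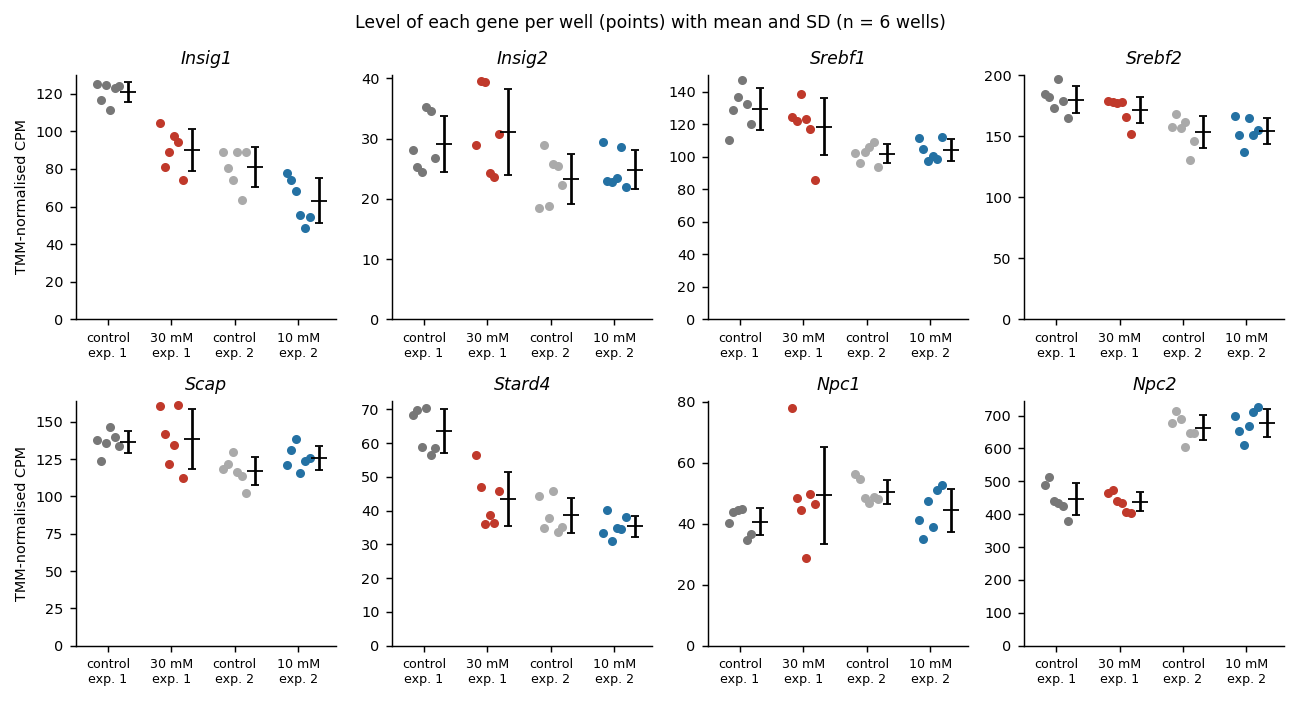
Level of each of the 8 genes in every well, in TMM-normalised CPM on axes that start at 0, with points for wells and bars for mean and SD (n = 6 wells per group). The 6 Insig1 points at 30 mM lie between 74.1 and 104 CPM, under all 6 controls of that experiment, and the Npc2 points of the second experiment lie above all of the first.

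Insig1, which retains SCAP in the endoplasmic reticulum, had a lowest value of 111.6, a median of 123.6 and a highest value of 125.3 CPM in the controls of the first experiment. At 30 mM these were 74.1, 91.7 and 104.2 CPM. All 6 ethanol wells were below all 6 controls, a pattern found in 3.1% of genes. The means were 90.1 ± 11.1 and 121 ± 5.46 CPM (SD, n = 6 wells each). The log2 fold change was -0.42 (SE 0.0851, 95% interval -0.588 to -0.245, edgeR adjusted p = 0.000685). Ethanol wells were more spread, with a coefficient of variation of 12.3% against 4.52%.

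Insig2, its paralog, did not pass the test at 30 mM. Its controls ran from 24.5 to 35.3 CPM with a median of 27.5, and its ethanol wells from 23.6 to 39.6 with a median of 29.8. The groups overlapped widely, and the log2 fold change was 0.09 (95% interval -0.208 to 0.396, edgeR adjusted p = 0.756).

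At 10 mM, Insig1 fell, and none of the other 7 genes passed the test. Its controls in the second experiment had a lowest value of 63.6, a median of 84.9 and a highest value of 89.3 CPM. The wells at 10 mM had 48.8, 61.8 and 77.7 CPM. Here the groups overlapped, with 3 of 6 ethanol wells under every control. The log2 fold change of Insig1 was -0.38 (SE 0.0978, 95% interval -0.578 to -0.189, edgeR adjusted p = 0.0383), or 23.3% lower. At this dose 0.657% of 13538 genes were called, 0.391% higher and 0.266% lower, and 0.303% had every ethanol well below every control. The call lay near its threshold. It was lost in 11 of 19 alternative analyses, among them DESeq2 (adjusted p = 0.0706) and limma voom (adjusted p = 0.0518), while the log2 fold change stayed between -0.45 and -0.32. Leaving out any of 7 wells ended the call: replicates 4, 5 and 6 at 10 mM (adjusted p = 0.140, 0.153 and 0.0888 by edgeR) and control replicates 1, 2, 4 and 6 (0.117, 0.0562, 0.103 and 0.139).

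Insig2 at 10 mM spanned 22.0 to 29.5 CPM against 18.5 to 28.9 in controls, with a log2 fold change of 0.09 (95% interval -0.209 to 0.383, edgeR adjusted p = 0.900). The ratio of the INSIG genes within a well does not depend on how the well is scaled. The log2 ratio of Insig1 to Insig2 counts was 1.54 ± 0.441 at 30 mM and 2.06 ± 0.260 in its controls (SD, n = 6). The difference was -0.51 (two-sided exact permutation p = 0.0433, or 0.0866 adjusted over the 6 ratio tests). At 10 mM the ratio was 1.32 ± 0.317 and in its controls 1.79 ± 0.349, a difference of -0.47 (exact permutation p = 0.0325, adjusted p = 0.0866). Neither difference in ratio passed the adjusted threshold, and in each experiment the wells of both groups overlapped.

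Scap, the escort of the SREBPs, stayed near its control level at both doses. Its wells ran from 112.3 to 161.1 CPM at 30 mM and from 123.7 to 146.3 in the controls, with a log2 fold change of 0.03 (95% interval -0.135 to 0.196, edgeR adjusted p = 0.866). The ethanol wells spread on both sides of the controls. At 10 mM they ran from 115.4 to 138.6 CPM against 102.2 to 129.8, with a log2 fold change of 0.09 (95% interval -0.0529 to 0.241, edgeR adjusted p = 0.721).

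The factors themselves did not pass the test at either dose. Srebf2, whose product mainly drives cholesterol genes, had a median of 177.8 CPM at 30 mM (range 152.3 to 178.9) and 180.6 in controls (164.7 to 197.4). Its log2 fold change was -0.07 (95% interval -0.207 to 0.0752, edgeR adjusted p = 0.611). Srebf1, whose product mainly drives fatty acid genes, had a median of 122.7 CPM at 30 mM (85.7 to 138.5) and 130.5 in controls (110.6 to 147.5). Its log2 fold change was -0.12 (95% interval -0.303 to 0.0528, edgeR adjusted p = 0.409), and 1 well, replicate 6, lay under all others. At 10 mM the medians of Srebf1 were 102.7 CPM in both groups and those of Srebf2 153.1 and 157.3 in controls, and the 95% intervals of the log2 fold change were -0.131 to 0.174 for Srebf1 and -0.140 to 0.138 for Srebf2. The log2 ratio of Srebf2 to Srebf1 differed by 0.07 at 30 mM (exact permutation p = 0.452) and by -0.02 at 10 mM (exact permutation p = 0.792), with adjusted p of 0.543 and 0.792.

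Stard4, the sterol carrier, had a lowest value of 56.4, a median of 63.5 and a highest value of 70.5 CPM in the controls of the first experiment. At 30 mM it had 36.1, 42.2 and 56.5 CPM. In 5 of 6 ethanol wells the level was below every control, and replicate 1, at 56.49 CPM, lay just above the lowest control at 56.39. The means were 43.4 ± 7.96 and 63.7 ± 6.49 CPM (SD, n = 6). The log2 fold change was -0.54 (SE 0.113, 95% interval -0.764 to -0.311, edgeR adjusted p = 0.000906). At 10 mM the wells ran from 31.0 to 40.0 CPM, inside and just below the control range of 33.7 to 45.8. The log2 fold change there was -0.14 (95% interval -0.381 to 0.0941, edgeR adjusted p = 0.749).

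**Figure D2:**
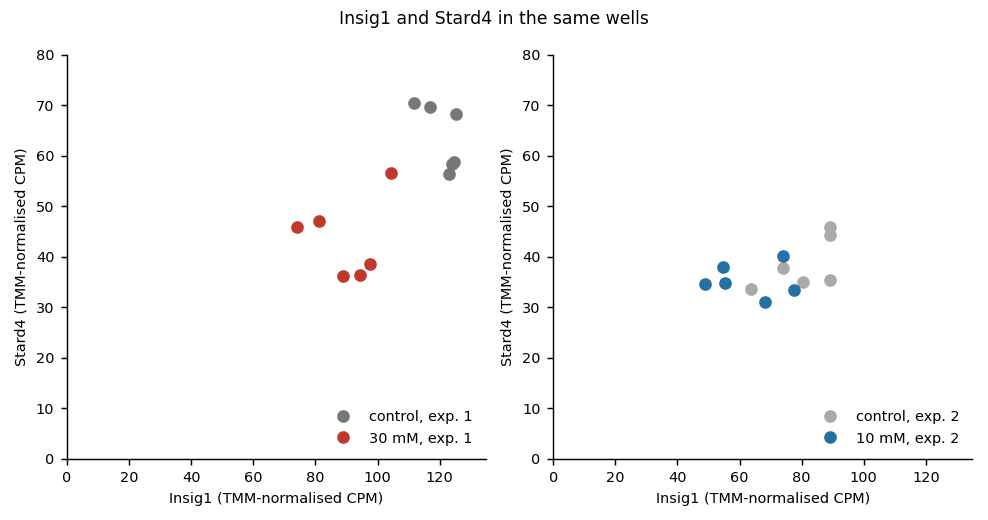
Insig1 (x axis) against Stard4 (y axis) in TMM-normalised CPM, 1 point per well, with the first experiment on the left and the second on the right. At 30 mM the ethanol wells lie lower on both axes, with replicate 1 (104.2 and 56.5 CPM) nearest the controls, and at 10 mM the groups separate partly on the Insig1 axis and overlap on the Stard4 axis.

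Npc1, the membrane protein that passes cholesterol out of the lysosome, was the most variable of the 8 genes at 30 mM. Its wells ran from 28.8 to 77.8 CPM with a median of 47.5, a coefficient of variation of 32.3%, while its controls ran from 34.7 to 44.7 with a median of 41.9. The highest well was replicate 1 and the lowest replicate 4. The log2 fold change was 0.29 (SE 0.142, 95% interval 0.00463 to 0.579, edgeR adjusted p = 0.204), a value which rested on single wells. Without replicate 1 it was 0.09 (edgeR adjusted p = 0.694), and without replicate 4 it was 0.41 (edgeR adjusted p = 0.0510). At 10 mM its wells ran from 34.9 to 52.6 CPM, against 46.6 to 56.2 in controls, with a log2 fold change of -0.20 (95% interval -0.410 to 0.0196, edgeR adjusted p = 0.556).

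Npc2, the soluble lysosomal protein that hands cholesterol to NPC1, had medians of 437.1 CPM at 30 mM and 438.0 in controls. The log2 fold change was -0.03 (95% interval -0.160 to 0.105, edgeR adjusted p = 0.845). At 10 mM the medians were 684.0 and 662.6 CPM, with a log2 fold change of 0.02 (95% interval -0.0824 to 0.127, edgeR adjusted p = 0.935). The wells overlapped at both doses. The log2 ratio of Npc1 to Npc2 differed by 0.25 at 30 mM (exact permutation p = 0.242, adjusted p = 0.364) and by -0.23 at 10 mM (exact permutation p = 0.0411, adjusted p = 0.0866). At 30 mM the difference was 0.12 without replicate 1 and 0.39 without replicate 4 (exact permutation p adjusted to 0.569 and 0.0519).

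Whether the ethanol change itself differed between experiments was tested over all 24 wells as an interaction, 30 mM minus 10 mM. None of the 8 genes passed by edgeR, against 3.28% of 14655 genes, and 2 of the 8 had an unadjusted p under 0.05, against 17.2% of all genes. Those were Stard4, with a difference of -0.41 (95% interval -0.735 to -0.0759, edgeR adjusted p = 0.170), and Npc1, with 0.48 (95% interval 0.112 to 0.842, edgeR adjusted p = 0.139). Both moved past the threshold when 1 well was left out: Stard4 to -0.53 (edgeR adjusted p = 0.0476) without replicate 1 at 30 mM, and Npc1 to 0.58 (edgeR adjusted p = 0.0494) without replicate 4 at 30 mM. Without replicate 1 the difference for Npc1 was 0.26 (edgeR adjusted p = 0.398). For Insig1 the difference was -0.05 (95% interval -0.317 to 0.226, edgeR adjusted p = 0.898), an interval that allows differences between the doses in either direction. The interaction uses the same control wells as the tests at each dose and is no further replicate of them.

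**Figure D3:**
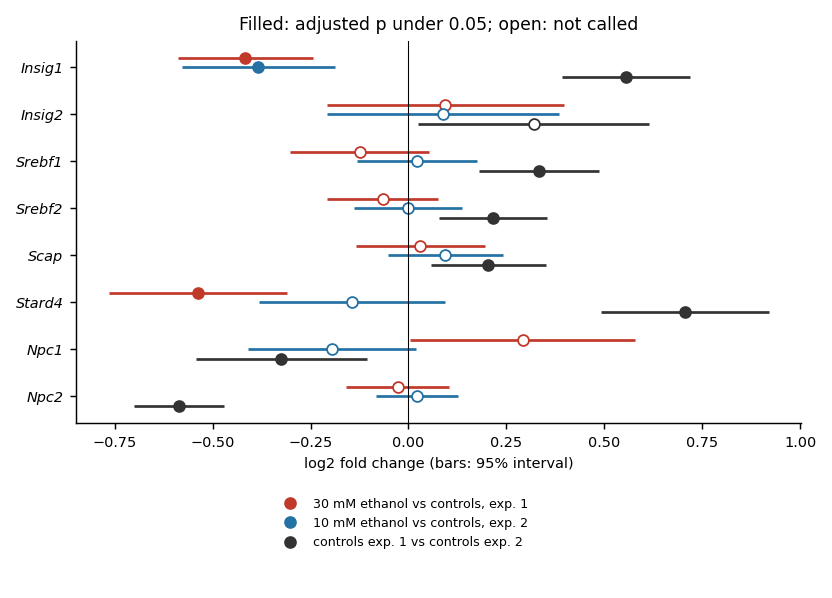
Log2 fold change of each of the 8 genes (x axis) with 95% intervals, for 30 mM and 10 mM ethanol against their own controls and for the controls of the first against those of the second experiment. Filled points passed an adjusted p of 0.05; the intervals of Insig1 lie under 0 at both doses, from -0.588 to -0.245 and from -0.578 to -0.189, and 7 of 8 control points are filled.

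More of the 8 genes differed between the untreated cultures of the experiments than with ethanol. In the controls of the first experiment, 5 of the 8 were higher, 2 were lower, and 1 did not pass. The median log2 difference was 0.27 over the 8 genes and -0.01 over all genes. This was against a background in which 43.6% of 13479 genes passed, 21.3% higher and 22.3% lower. Stard4 had a log2 difference of 0.71 (SE 0.108, edgeR adjusted p = 6.4e-08), with 56.4 to 70.5 CPM against 33.7 to 45.8. Insig1 was higher by 0.56 (SE 0.0823, edgeR adjusted p = 2.79e-08), with 111.6 to 125.3 against 63.6 to 89.3 CPM. The control wells of Insig1, Stard4, Srebf1, Npc1 and Npc2 did not overlap between experiments. The share of all genes with this pattern was not counted. Srebf1 was higher by 0.33 (SE 0.0776, adjusted p = 0.000272 by edgeR), Srebf2 by 0.22 (SE 0.0689, adjusted p = 0.00797) and Scap by 0.20 (SE 0.0739, adjusted p = 0.0198). The call for Scap was lost without control replicate 6 of the second experiment (edgeR adjusted p = 0.0732). Insig2 had a log2 difference of 0.32 (95% interval 0.0244 to 0.614, edgeR adjusted p = 0.0726), which passed without control replicate 2 or 3 of the first experiment or replicate 2 of the second (0.0495, 0.0419 and 0.0378). The genes of lysosomal exit went the other way. Npc2 had a log2 difference of -0.59 (SE 0.0583, edgeR adjusted p = 2.33e-14), with 378.8 to 512.7 against 605.5 to 713.8 CPM. Npc1 had a log2 difference of -0.32 (SE 0.110, edgeR adjusted p = 0.0122), with 34.7 to 44.7 against 46.6 to 56.2 CPM, and lost its call in a joint fit of all wells (adjusted p = 0.0510) and with no filter on low counts (0.0753).

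In order of level, Insig1 ran from the controls of the first experiment at 121 CPM to 30 mM at 90.1, the controls of the second at 81.0 and 10 mM at 63.2. The wells at 30 mM and the controls of the second experiment overlapped. Stard4 ran in the same order, at 63.7, 43.4, 38.6 and 35.3 CPM, and its last 3 groups overlapped. Of the marker lists, that of microglia had the largest median difference between these cultures: 9 of 9 tested were lower in the first experiment, with a median log2 difference of -3.29. The part of this difference, and of any other difference between experiments, in the levels of Npc1 and Npc2 was not tested. In bulk RNA, fewer cells of a type and less RNA per cell cannot be told apart.

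Marker lists also moved with ethanol. At 30 mM, 7 of 9 oligodendrocyte markers and 5 of 7 astrocyte markers were higher, and 5 of 8 fibroblast and mural markers were lower. Over all genes, 3.02% were called higher and 6.65% lower. Summed levels were 8998 to 15700 against 7509 to 8688 CPM for oligodendrocytes, 4902 to 6107 against 3753 to 4370 for astrocytes and 333.4 to 418.2 against 707.8 to 953.5 for fibroblasts and mural cells. At 10 mM, 3 of 9 oligodendrocyte markers were higher, 1 of 7 tested fibroblast and mural markers was lower and no astrocyte marker passed. The shares of all genes were 0.391% higher and 0.266% lower. Summed oligodendrocyte markers were 8194 to 9313 against 7038 to 8922 CPM at that dose. Of the others, 1 microglial marker was higher and 1 neuronal marker lower at each dose, and no precursor or endothelial marker passed. Of 4 tested neuronal markers, 3 were above 0 at 30 mM (median 0.26) and 3 were below 0 at 10 mM (median -0.28). The part of the marker lists in the lower Insig1 and Stard4 was not tested. Without replicate 1, the log2 fold changes of Insig1 and Stard4 were -0.47 and -0.64 (edgeR adjusted p = 0.000111 and 6.27e-05). The marker lists still differed among the remaining wells, with medians of 0.29 for oligodendrocyte, 0.47 for astrocyte and -0.83 for fibroblast and mural markers, so their part remains untested there too.

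The genes around the 8 were grouped by role. Among 18 tested genes of SREBP processing and transport (the Golgi proteases, ERLIN and ubiquitin ligase proteins, the COPII coat that carries SCAP, and other regulators), 1 rose and none fell at 30 mM. It was Erlin2, a membrane protein of the endoplasmic reticulum, at 105.6 ± 7.99 CPM against 87.9 ± 7.24 (SD, n = 6, scaled to total counts), with a log2 fold change of 0.25 (edgeR adjusted p = 0.0481). Of all genes tested at 30 mM, 3.02% were called higher and 6.65% lower. No gene of this list passed at 10 mM, and its medians were -0.02 and -0.0025 at the higher and lower dose. Between untreated cultures, 7 of the 18 were higher in the first experiment and none lower, where 43.6% of all genes were called, 21.3% higher and 22.3% lower. The largest differences were in the coat genes Sec24b (0.59) and Sar1a (0.48).

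Of 19 tested genes of cholesterol synthesis, 6 fell and none rose at 30 mM, 15 of 19 log2 fold changes were below 0, and the median was -0.22 against 0.02 for all genes. Over all genes, 6.65% were called lower and 3.02% higher. Lss, which closes the sterol ring, fell by 0.53 (35.4 ± 7.55 against 51.9 ± 6.85 CPM scaled to total counts, SD, n = 6, edgeR adjusted p = 0.00387). Nsdhl, a later sterol dehydrogenase, fell by 0.50 (27.5 ± 4.21 against 39.5 ± 5.50 CPM, edgeR adjusted p = 0.0103). Mvk fell by 0.41, Pmvk by 0.28 and Sqle by 0.26 on the log2 scale, with edgeR adjusted p of 0.0177, 0.0252 and 0.0312. The first 2 are kinases of the mevalonate pathway, and Sqle makes the epoxide that Lss uses. The summed level of the list was 2428 CPM in replicate 1 at 30 mM and 1784 to 1872 in the other 5 wells, against 2059 to 2357 in the controls. Without replicate 1, 10 of the 19 fell, the median was -0.29 and 18 of 19 were below 0, an analysis chosen after seeing the data. At 10 mM none of the 19 passed by edgeR, 17 of 19 were below 0 and the median was -0.15, against -0.0023 for all genes.

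**Figure D4:**
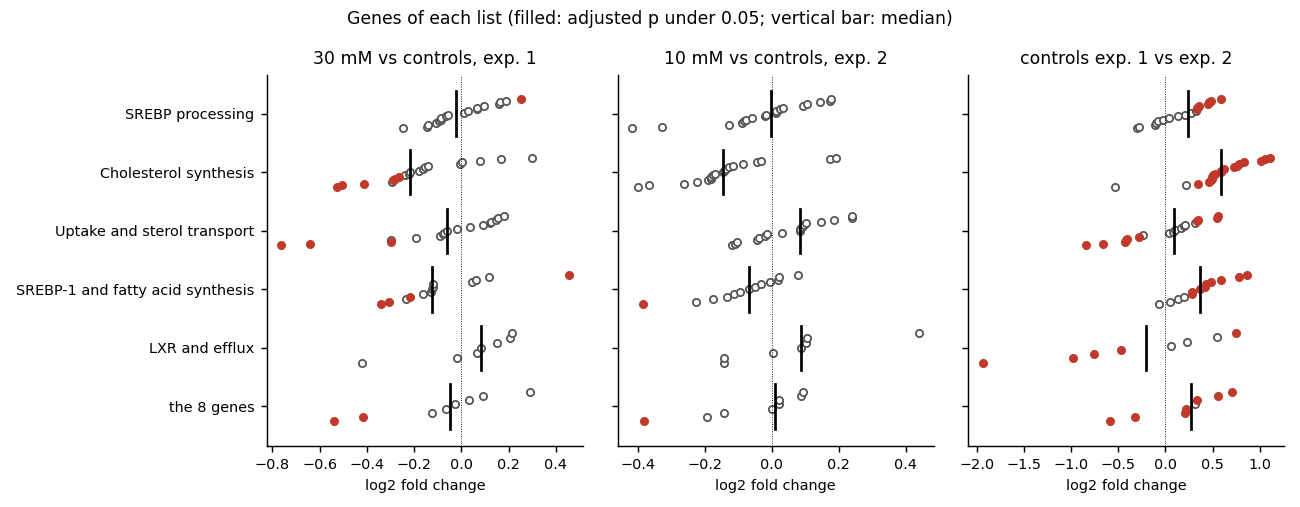
Log2 fold changes (x axis, with its own range in each panel) of the genes of 5 pathway lists and of the 8 genes, 1 point per tested gene, filled where the adjusted p was under 0.05, with a vertical bar at each list's median. The cholesterol synthesis median lies at -0.218, -0.146 and 0.588 from the left panel to the right, and in the right panel 17 of its 19 points are filled and above 0.

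The levels of Insig1 and Stard4 were set against summed lists well by well. After centring each experiment on its mean, the Pearson r of log2 CPM with the summed cholesterol synthesis list was 0.75 for Insig1 and 0.76 for Stard4 over 24 wells, and 0.53 and 0.61 after centring each group. Of the cell marker lists, those of astrocytes and of fibroblasts and mural cells had the largest r in size with the experiments centred. For astrocyte markers r was -0.58 with Insig1 and -0.68 with Stard4, and for fibroblast and mural markers 0.53 and 0.66. For oligodendrocyte markers r was -0.37 and -0.33. The remaining marker lists gave -0.20 to 0.40 with Insig1 and -0.54 to 0.04 with Stard4. With groups centred, r was -0.22 and -0.04 for astrocyte markers and -0.34 and -0.39 for fibroblast and mural markers. For oligodendrocyte markers it was then 0.30 and 0.46. Stard4 had its largest r with groups centred, -0.74, with the endothelial markers, which summed to at most 66.3 CPM. With the synthesis list, r for Npc1 and Npc2 was 0.14 and 0.11, experiments centred. With each other, Insig1 and Stard4 had r of 0.56 with experiments centred and 0.12 with groups centred. These values are descriptions: wells share libraries, scaling and group, and no test was made. Between untreated cultures, 17 of the 19 synthesis genes were higher in the first experiment and none was lower, with a median of 0.59 against -0.01 for all genes, of which 21.3% were higher and 22.3% lower. Nsdhl (1.11), Lss (1.06) and Hmgcs1 (1.01) had the largest log2 differences there.

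Of 17 tested genes of uptake and sterol transport, 3 fell at 30 mM and none rose, with a median of -0.06. Of all genes, 6.65% were called lower and 3.02% higher at this dose. Tmem97, a sterol-regulated membrane protein that binds NPC1, fell by 0.76 (19.5 ± 2.86 against 32.9 ± 4.56 CPM scaled to total counts, SD, n = 6, edgeR adjusted p = 0.000381). Scarb1, a receptor for high-density lipoprotein, fell by 0.64 (22.2 ± 3.80 against 34.8 ± 2.33 CPM, edgeR adjusted p = 0.00135), and Lrp8, a lipoprotein and reelin receptor, fell by 0.30 (edgeR adjusted p = 0.0365). None of the 17 passed at 10 mM. The change differed between the doses for Scarb1 (-0.68, edgeR adjusted p = 0.0310) and Tmem97 (-0.66, edgeR adjusted p = 0.0474), 2 of 18 genes of this list in the interaction. Over all genes, 3.28% passed in that comparison. Between untreated cultures, 4 of 18 were higher and 6 lower in the first experiment, where 21.3% of all genes were called higher and 22.3% lower. Among the lower were Soat1 (-0.84), which esterifies cholesterol, and Lipa (-0.67), the lysosomal acid lipase.

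Of 13 tested fatty acid genes, which lie mainly under SREBP-1, 3 fell and 1 rose at 30 mM, where 6.65% of all genes were called lower and 3.02% higher. Me1 fell by 0.34, Acly by 0.31 and the desaturase Scd1 by 0.22 (edgeR adjusted p = 0.00513, 0.0204 and 0.0324), while Thrsp rose by 0.45 (edgeR adjusted p = 0.0254). At 10 mM, where 0.391% of all genes were called higher and 0.266% lower, Scd1 alone of the 13 passed. It fell by 0.39 (194.6 ± 9.15 against 255.3 ± 22.3 CPM scaled to total counts, SD, n = 6, edgeR adjusted p = 8.88e-05). Its change was not called different between doses (0.16, edgeR adjusted p = 0.414). Between untreated cultures, 9 of the 13 were higher in the first experiment and none lower, with a median of 0.37. For all genes the median was -0.01, with 21.3% higher and 22.3% lower. Of 7 tested genes of sterol efflux and its regulator LXR, none passed at either dose by edgeR. Of 8 tested between untreated cultures, 4 were lower and 1 was higher in the first experiment, against the same shares of all genes. Among the lower were Mylip (-1.94), which targets lipoprotein receptors for breakdown, and the exporters Abcg1 (-0.98) and Abca1 (-0.76). The higher one was Abcg4 (0.74).

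Genes most alike each of the 8 were found by Pearson r of log2 CPM over 24 wells, with each experiment centred, among 13500 genes. Stard4 had the closest companions: Eif4a1 (0.91), Nme1 (0.88) and Rnh1 (0.87). Insig1 went with Slpi (0.81), Kif22 (0.78) and Gria2 (0.77). Insig2 went with Sel1l (0.77), Fancc and Cutc (both 0.65), Srebf1 with Fgf11 (0.82) and Ctss (0.79), and Srebf2 with Hist3h2ba (0.77), Mtor (0.77) and Hsp90ab1 (0.73). Scap went with Dpysl2 (0.83), Rtraf (0.74) and Cdk18 (0.71), Npc1 with Kcna1 (0.76), Sh3bp5 (0.76) and Sesn2 (0.75), and Npc2 with Apod (0.82), Nedd8 (0.77) and Use1 (0.77). No gene of the cholesterol synthesis list was among these. The ranking covers all genes, so the highest values are selected ones and carry no test. Spearman rank correlations were lower for some pairs. They were 0.544 for Fancc with Insig2, and 0.585 for Fgf11 and 0.579 for Ctss with Srebf1. With Npc1 they were 0.569 for Kcna1 and 0.584 for Sh3bp5. For the genes named with Stard4 they were 0.842 to 0.896.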

How the data were processed

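Whole-number counts per gene were deposited by the authors for 24 wells, made by 3′ tag sequencing of total RNA with single-end reads of 100 bases, per the labels' protocols. Reads were handled with cutadapt 1.18 and STAR on the GRCm39 build, per the submitters' processing notes. The counting tool, annotation, use of strand and treatment of PCR duplicates are not given in the sources used here, so counts of overlapping genes are uncertain. Floors cover counting error only, since copies made by PCR are not independent molecules. Symbols were matched by Ensembl identifier (52083 of 55359, 3276 without).

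From these counts, each dose was compared with the 6 controls of its own experiment, and the interaction and the control groups were tested likewise, with edgeR 4.0.16 in R 4.3.3 (quasi-likelihood test, TMM, filterByExpr with a minimum of 10 counts, Benjamini-Hochberg adjustment over all genes, threshold 0.05). Log2 ratios of counts plus 0.5 were compared by exact permutation of wells. The code was tested on simulated counts with changes larger than those of the 8 genes and the same setting of spread for every gene. That test therefore does not show how well changes of the size seen here are found. Alternatives covered edgeR with DESeq2 size factors, other filters, DESeq2 1.42.0, limma 3.58.1 (voom), a joint fit, a replicate block and leaving out each well. The 8 genes are named throughout, and from each list up to 6 genes that passed, largest first. The members and lists were chosen with earlier results of these data known. Some results on single genes are not reported here.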

Additional observations from a re-analysis of the deposited data

Results flagged for a closer look

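The levels of the 8 genes and the 3 log2 ratios were screened, within each group of 6 wells, for a highest or lowest well far from the rest. Of 44 sets of 6 values, 1 had such a well, where chance gives about 1 in 20, or 2.2 of 44. In control replicate 5 of the second experiment the log2 ratio of Srebf2 to Srebf1 was 0.261, while the other 5 wells of that group lay between 0.603 and 0.803.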

How the results depend on the processing

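Insig1 and Stard4 kept their calls at 30 mM in 19 of 19 alternatives, with log2 fold changes from -0.466 to -0.367 and from -0.636 to -0.488. At 10 mM the number of genes called was 89, and it was 21 in the joint fit and 37 to 95 when a well was left out. Of the 8 genes, 1 was called at 10 mM, and 0 were called with no filter on low counts, with DESeq2, with limma voom and in the joint fit, and 0 to 1 when a well was left out. The count for the difference between doses was 481, and 329 to 759 when a well was left out, with 759 without replicate 1 and 723 without replicate 2 at 30 mM, and 0 to 1 of the 8 genes among them. Of the 6 ratio tests, 0 passed, and 0 to 1 passed when a well was left out. The Npc1 to Npc2 ratio at 10 mM passed without replicate 3 at 10 mM (-0.28, exact permutation p adjusted to 0.0390). Cholesterol synthesis genes called lower at 30 mM went from 6 to 10 without replicate 1, an alternative chosen after seeing the data. The cause of these shifts was not tested.

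Signs turned only for values near 0 that passed no test. Srebf2 at 10 mM was -0.0008 and became 0.000989 with DESeq2 size factors, 0.0224 with no filter, 0.000661 with DESeq2, 0.000345 with voom and 0.0082 in the joint fit. It ranged from -0.0392 to 0.032 when a well was left out. Left-out wells moved Scap at 30 mM from -0.0182 to 0.084, Npc2 at 30 mM from -0.0661 to 0.0151, the Insig1 difference between doses from -0.12 to 0.0178, that of Insig2 from -0.116 to 0.0579 and the Srebf2 to Srebf1 ratio at 10 mM from -0.0892 to 0.0194. The Insig2 difference was 0.00432 with a filter at 10 CPM in 6 wells.

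No pairing of wells by replicate number was seen. Same-numbered ethanol and control wells had correlations of -0.243 to 0.218 in the first experiment and -0.253 to 0.217 in the second. Of 12 ethanol wells, 1 correlated best with its own number. Such correlations cannot exclude that wells shared a litter or isolation. With the replicate number as a block, 5860 genes were called between controls, 1208 at 30 mM, 68 at 10 mM and 461 for the difference, and no call of the 8 genes changed. With counts of 26 to 60 per well, Insig2 had the widest interval of the 8 genes between controls.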
